A study of Rattus norvegicus with 24 samples.

Results

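Inflammatory mediators and an NF-kB feedback gene, 6 genes in all, were followed across rat cortical cultures with and without exposure to excess glutamate. They were named by a list of Ensembl gene IDs and symbols: Ptgs2 (ENSRNOG00000002525), Il1b (ENSRNOG00000004649), Il6 (ENSRNOG00000010278), Ccl2 (ENSRNOG00000007159), Cxcl1 (ENSRNOG00000002802) and Nfkbia (ENSRNOG00000007390). All 6 IDs were present among the 32754 gene rows of the count table. The table gives IDs alone, so the symbols rest on that list.

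The series profiled RNA by sequencing in 24 libraries of cells labelled as cortical cells from rat, described in the design text as neurons grown on coated plates for 8 days. The groups, with 3 libraries each, were IS141 with glutamate, AH609 with glutamate, AH236 with glutamate and DMSO with glutamate, followed by IS141, AH609, AH236 and DMSO in fresh growth medium. Glutamate was given at 250 μM, and wells were then imaged for 4 h. When RNA was taken, and the dose, timing and identity of the 3 agents, are not given in the labels. DMSO, a common solvent, was taken as the control for the 3 agents. Strain, age and the number of animals are not stated, and the labels do not say whether the 3 libraries of a group were independent cultures. The p-values therefore speak to variation among libraries, part of which could be technical. Defining markers of neurons, astrocytes or microglia were not analysed here, because the IDs of those genes are not paired with symbols in the sources used. Library totals lay between 22509400 and 35496447 counts. One library, DMSO replicate 1 in medium, stood apart from the other 23 on the second principal component, at -48.0 against -12.8 to 19.7, and member values are also given without it where its loss changed a call.

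NF-kB is a family of transcription factors held in the cytoplasm by inhibitor proteins. On activation the inhibitor is degraded and NF-kB enters the nucleus, where it drives genes of cytokines, chemokines and enzymes, and also the gene of its own inhibitor, which closes a negative feedback loop. In brain, microglia and astrocytes are the best known sources of the cytokines and chemokines studied here. Ptgs2, which encodes the prostaglandin-forming enzyme COX-2, is also expressed by excitatory neurons, where synaptic activity raises it. Nfkbia encodes IkB-alpha, the inhibitor that is itself an NF-kB target. Cxcl1 encodes a chemokine that attracts neutrophils, and Ccl2 one that attracts monocytes. Il1b and Il6 encode the cytokines interleukin-1 beta and interleukin-6.

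Promoter windows from RefSeq, build GRCr8, were found by symbol for 5 of the 6 genes. The windows of the 3 tested genes and of Il6 are shown because they differ in which motifs they hold, and that of Il1b, which had no called change, is described but not printed. Each window runs from 250 bases before the annotated gene start to 50 bases after it, and it is printed 5′ to 3′ on the gene's strand. Capitals mark matches to the NF-kB consensus, or, in Ptgs2, which held none, the match to the C/EBP motif TTGCNNAA. The matches in Nfkbia and Ptgs2 read on the other strand.
Cxcl1, chr14:17479272-17479571, minus strand: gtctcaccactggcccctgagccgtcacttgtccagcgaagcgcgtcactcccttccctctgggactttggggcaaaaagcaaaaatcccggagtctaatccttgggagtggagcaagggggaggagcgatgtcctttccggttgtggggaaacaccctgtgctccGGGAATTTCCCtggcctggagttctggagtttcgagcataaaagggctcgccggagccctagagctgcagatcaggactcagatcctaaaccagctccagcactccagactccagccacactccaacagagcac
Nfkbia, chr6:78597023-78597322, minus strand: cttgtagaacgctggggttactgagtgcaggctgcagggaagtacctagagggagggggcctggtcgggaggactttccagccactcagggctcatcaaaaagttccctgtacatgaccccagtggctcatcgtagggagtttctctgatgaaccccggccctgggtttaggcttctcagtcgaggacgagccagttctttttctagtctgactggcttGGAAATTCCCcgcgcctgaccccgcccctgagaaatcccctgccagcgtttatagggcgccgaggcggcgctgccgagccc
Il6, chr4:5894526-5894825, minus strand: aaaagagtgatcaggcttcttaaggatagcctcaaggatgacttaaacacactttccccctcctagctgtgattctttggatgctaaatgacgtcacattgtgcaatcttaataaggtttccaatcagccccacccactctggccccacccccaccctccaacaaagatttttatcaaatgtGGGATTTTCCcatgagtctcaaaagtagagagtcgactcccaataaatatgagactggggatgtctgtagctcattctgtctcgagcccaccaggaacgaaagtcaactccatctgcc
Ptgs2, chr13:64713813-64714112, plus strand: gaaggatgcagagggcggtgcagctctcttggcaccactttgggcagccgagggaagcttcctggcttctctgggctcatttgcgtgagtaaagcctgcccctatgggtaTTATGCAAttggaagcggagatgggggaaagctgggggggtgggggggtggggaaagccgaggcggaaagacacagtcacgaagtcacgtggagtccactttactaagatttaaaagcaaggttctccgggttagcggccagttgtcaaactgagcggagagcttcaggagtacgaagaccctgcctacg

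The NF-kB consensus was matched in the windows of Cxcl1, Nfkbia and Il6, which is 3 of the 5 windows, while 4.18% of the 33469 promoter windows of the same length held it. Both strands were searched. In Cxcl1 the match read on both strands as a pair of overlapping matches, 84 to 74 bases before the gene start. In Nfkbia it lay 31 to 22 bases before the start, and in Il6 68 to 59 bases before it. The Ptgs2 window and the Il1b window held no match to the NF-kB consensus. Bases outside the windows were not searched, so a site further from the gene start would be missed. The C/EBP motif was matched in Ptgs2, Il1b and Il6, again 3 of 5, against 10.6% of all windows. The full cAMP response element, TGACGTCA, was matched in Il6 alone of the 5, against 1.83% of all windows. The shorter motif TGACG, which the full element contains on either strand, was matched in Il6 and Cxcl1, against 21.2% of all windows. The AP-1 motif TGANTCA was matched in none of the 5, against 7.33% of all windows. A match is a description of letters and not a measured binding site.

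**Figure D1:**
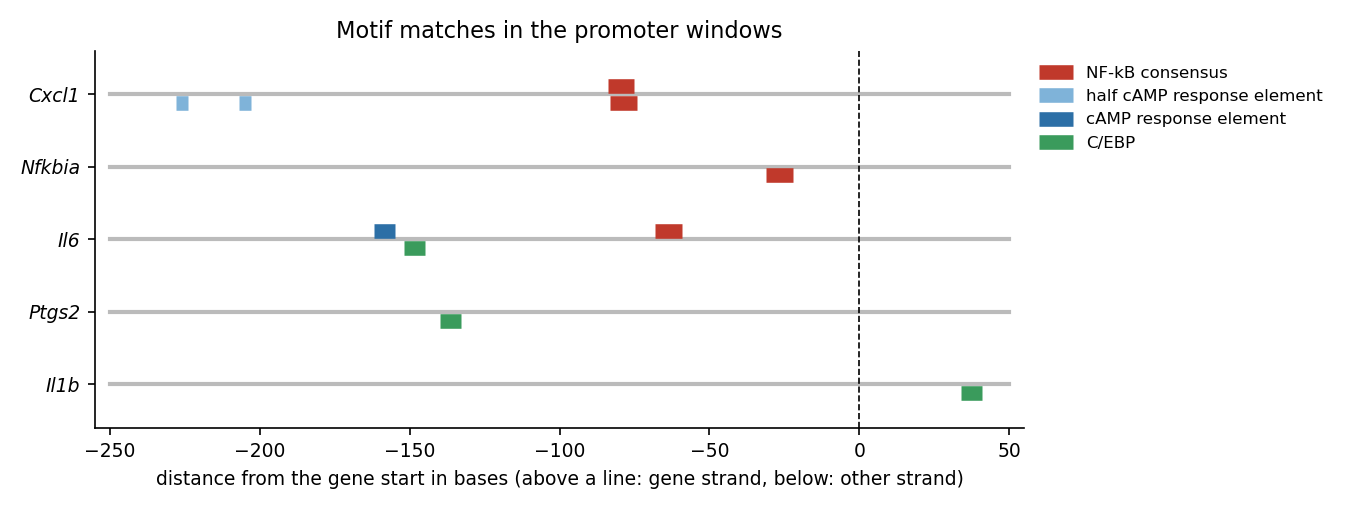
Positions of motif matches in the promoter windows of the 5 genes with a RefSeq window, by distance from the gene start in bases. Each bar is 1 match, above the line on the gene's strand and below it on the other strand. NF-kB matches lie within 84 bases before the start in Cxcl1, Nfkbia and Il6.

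The first comparison asked what glutamate did to these genes. Nfkbia, Cxcl1 and Ptgs2 rose in the cultures of all 4 treatments. Cxcl1 was nearly absent from medium libraries, while Nfkbia and Ptgs2 were counted in every one. Ccl2 and Il6 were counted in glutamate libraries and in no medium library, at a few counts. Il1b stayed at 11 counts or fewer in every library of both kinds. In these bulk libraries, a different number of cells of a type and a different amount of the RNA per cell cannot be told apart.

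Nfkbia had 12759 counts over the 24 libraries, the most of the 6. Levels are given as CPM, counts scaled to the size of each library, with TMM factors that adjust the sizes for composition. In glutamate, Nfkbia was at 31.5, 32.4 and 33.0 CPM in IS141 cultures, 33.2, 32.5 and 33.6 CPM in AH609 cultures, 30.2, 26.5 and 31.5 CPM in AH236 cultures, and 34.8, 30.8 and 28.1 CPM in DMSO cultures. In medium it was at 7.12, 5.90 and 7.29 CPM with IS141, 6.67, 6.87 and 6.62 CPM with AH609, 7.65, 6.54 and 6.43 CPM with AH236, and 7.18, 7.90 and 7.31 CPM with DMSO. The 12 glutamate libraries all lay above the 12 medium libraries, with no overlap. For this and the other tested members, how common such separation was among all genes was not counted. The log2 fold change was 2.25 ± 0.09 (SE) in IS141, 2.301 ± 0.09 in AH609, 2.10 ± 0.09 in AH236 and 2.07 ± 0.09 in DMSO cultures, and 2.18 ± 0.04 over all 4, which is 4.53-fold. The edgeR quasi-likelihood test, adjusted by Benjamini-Hochberg over all genes, gave adjusted p = 7.31e-17, 4.55e-17, 1.28e-16, 2.61e-16 and 4.63e-24 in that order.

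Ptgs2 had a larger fold change than Nfkbia in each treatment. In glutamate it was at 13.5, 16.5 and 12.98 CPM in IS141 cultures, 13.9, 14.1 and 11.7 CPM in AH609 cultures, 11.9, 12.7 and 14.1 CPM in AH236 cultures, and 12.2, 15.2 and 14.2 CPM in DMSO cultures. In medium it was at 1.71, 2.14 and 2.24 CPM with IS141, 1.24, 1.11 and 0.808 CPM with AH609, 0.598, 1.17 and 0.652 CPM with AH236, and 1.28, 0.822 and 1.01 CPM with DMSO. The lowest glutamate library was over 5 times the highest medium library, and the 4 glutamate groups overlapped one another. The log2 fold change was 2.82 ± 0.16 (SE) in IS141, 3.64 ± 0.18 in AH609, 3.97 ± 0.18 in AH236 and 3.73 ± 0.18 in DMSO cultures, and 3.54 ± 0.09 over all 4, which is 11.6-fold. The edgeR adjusted p-values were 8.47e-14, 6.21e-15, 7.93e-16, 2.11e-15 and 2.76e-22 in that order.

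Cxcl1 was near the detection limit in medium. In glutamate it had 75, 52 and 43 counts in IS141 cultures, 53, 50 and 53 in AH609 cultures, 55, 34 and 70 in AH236 cultures, and 50, 54 and 74 in DMSO cultures. In medium it had 4, 8 and 0 counts with IS141, 0, 4 and 4 with AH609, 1, 0 and 0 with AH236, and 1, 1 and 4 with DMSO. Every glutamate library thus held at least 34 counts and no medium library more than 8. As levels, Cxcl1 was at a median of 2.02 CPM in glutamate (lowest 1.56, highest 2.79; n = 12) and of 0.0347 CPM in medium (lowest 0, highest 0.295; n = 12). The summed counts gave a rate 14.8 times that of medium in IS141 cultures (exact 95% interval 8.24 to 29.2), 18.9 times in AH609 cultures (9.35 to 44.5) and 29.9 times in DMSO cultures (13.5 to 82.7). In AH236 cultures medium held 1 count in all, and the ratio of 209 had an interval of 36.9 to 8290. These intervals cover counting error only. The fitted log2 fold changes were 3.84 ± 0.46 (SE) in IS141, 4.21 ± 0.51 in AH609, 7.16 ± 0.68 in AH236 and 4.81 ± 0.52 in DMSO cultures, and 5.01 ± 0.27 over all 4. Their edgeR adjusted p-values were 9.26e-08, 8.49e-08, 1.22e-09, 1.63e-08 and 6.36e-15. Cxcl1 passed the filter on low counts only through its glutamate libraries, so these p-values are not separate support for the rise. The AH236 value rests on that single count and depends on how the fit treats zeros: it was 8.87 without AH236 medium replicate 1, which left no count in medium. In the fit of all libraries the AH236 interval was 54.3 to 379 times, narrower than that from counting error alone. The SE of 0.68 thus understates its uncertainty. Single medium libraries also moved other values, to 4.83 in IS141 cultures without IS141 medium replicate 2 and to 5.66 in DMSO cultures without DMSO medium replicate 3. Over the alternatives run, the values ranged from 3.30 to 4.83 in IS141, 3.67 to 4.61 in AH609 and 4.52 to 5.66 in DMSO cultures. All stayed called.

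**Figure D2:**
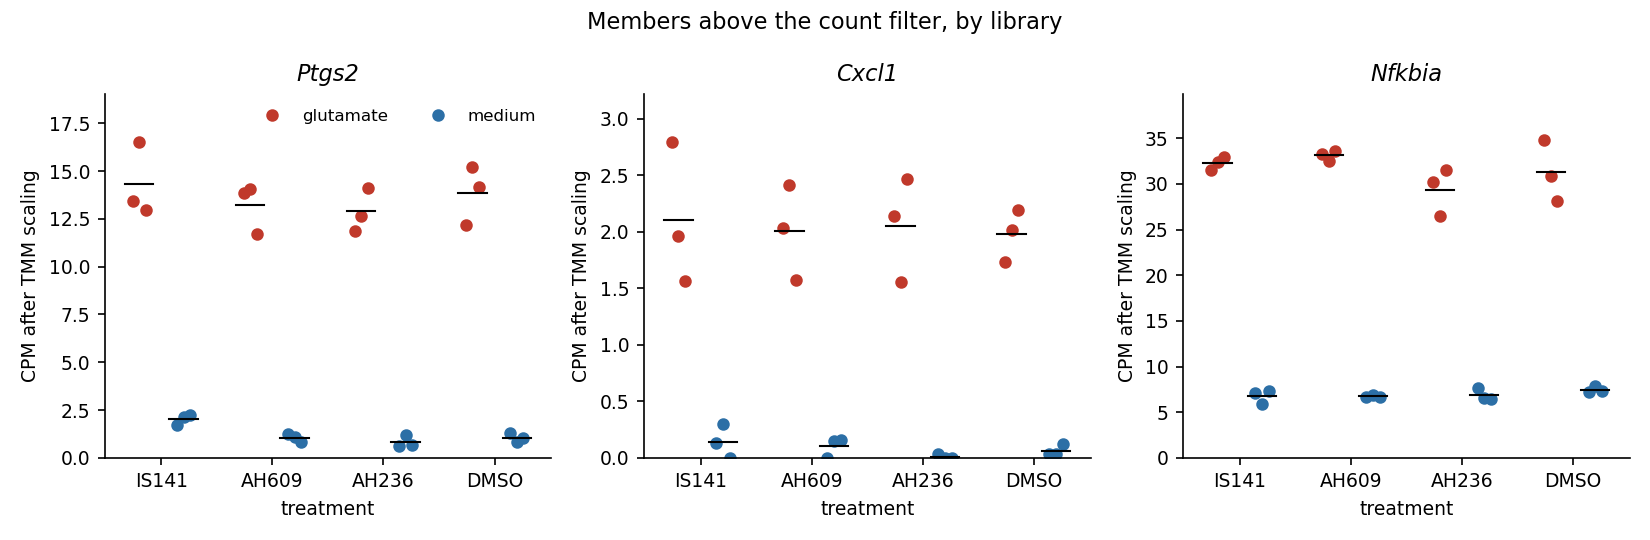
Level of Ptgs2, Cxcl1 and Nfkbia in each of the 24 libraries, in CPM after TMM scaling, by treatment, with glutamate in red left of medium in blue. Points are libraries and bars are group means (n = 3). All 12 glutamate libraries lie above all 12 medium libraries for each gene, and the 4 glutamate groups overlap. How many of all genes separate in this way was not counted.

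Of the 6 genes, 3 passed the filter on low counts and were tested, and all 3 were called higher in every glutamate comparison at an adjusted p under 0.05. Among all 15908 genes tested, the share called in either direction was 59.1% in IS141 cultures, 61.3% in AH609, 60.6% in AH236 and 59.1% in DMSO, and 78.4% over all 4 treatments. Being called was therefore the commonest outcome for any gene. Cxcl1 passed the filter only through the glutamate libraries, since all 12 of them and none of the medium libraries exceeded its threshold of 0.356 CPM, so its place among the tested genes already required a difference. Ptgs2 and Nfkbia exceeded that threshold in all 24 libraries. By size of rise over all 4 treatments, Cxcl1 was 26th among the called genes, Ptgs2 109th and Nfkbia 371st, while for all genes tested the median on the log2 scale was 0.00 and the 90th percentile of the absolute change was 1.18. With scaling by library totals the median of all genes became -0.19, and the log2 fold changes of Ptgs2, Cxcl1 and Nfkbia were 3.35, 4.83 and 1.99.

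The other 3 genes had too few counts for the filter. Ccl2 in glutamate had 4, 0 and 3 counts in IS141 cultures, 1, 2 and 1 in AH609 cultures, 3, 5 and 5 in AH236 cultures, and 1, 2 and 6 in DMSO cultures. In medium it had 0 counts in all 12 libraries. Summed, there were 33 counts in glutamate, spread over 11 of 12 libraries, which is a rate of 0.101 CPM (exact 95% Poisson interval 0.0695 to 0.142), against 0 in medium, where a floor of 3 counts over the 12 libraries allows up to 0.00852 CPM. The glutamate rate was 11.86 times that floor, and the lower limit of its interval was 8.16 times the floor. The exact two-sided 95% upper limit for 0 counts in medium was 0.0105 CPM. It lies above the floor, so these ratios are not strict lower bounds. An exact permutation test that exchanged glutamate and medium labels within each treatment gave p = 5e-05 (two-sided, 160000 arrangements). In the fit with no filter, its edgeR adjusted p over all genes was 8.69e-06.

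Il6 had fewer counts still. In glutamate it had 1, 0 and 4 counts in IS141 cultures, 0, 0 and 1 in AH609 cultures, 0, 0 and 1 in AH236 cultures, and 1, 1 and 1 in DMSO cultures, and in medium it had 0 in all 12 libraries. The 10 glutamate counts came from 7 of 12 libraries, and 4 of them from IS141 replicate 3. The rate was 0.0306 CPM in glutamate (exact 95% Poisson interval 0.0147 to 0.0563), which is 3.59 times the floor in medium. The lower limit of that interval was 1.72 times the floor, again not a strict bound, since the exact upper limit in medium was 0.0105 CPM. The same exact permutation test gave p = 0.005, and the edgeR adjusted p with no filter was 0.0182. Differences between treatments in glutamate were not detectable at this depth.

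Il1b was counted in both conditions. In glutamate it had 8, 7 and 7 counts in IS141 cultures, 4, 11 and 2 in AH609 cultures, 4, 5 and 3 in AH236 cultures, and 7, 6 and 11 in DMSO cultures. In medium it had 9, 3 and 6 counts with IS141, 4, 2 and 6 with AH609, 6, 5 and 0 with AH236, and 4, 6 and 7 with DMSO. The counts of the groups overlapped in each of the 4 treatments. In CPM the DMSO groups did not overlap, at 0.224 to 0.326 CPM in glutamate against 0.135 to 0.215 CPM in medium. The summed rate was 0.230 CPM in glutamate and 0.165 CPM in medium, a ratio of 1.39 (exact 95% interval 0.976 to 2.00, counting error only). The mean was higher in glutamate in all 4 treatments, but the exact permutation test gave p = 0.096, and the edgeR adjusted p with no filter was 0.28. A change in Il1b was thus not detectable at this depth. The 3 permutation p-values of Ccl2, Il6 and Il1b are not adjusted.

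**Figure D3:**
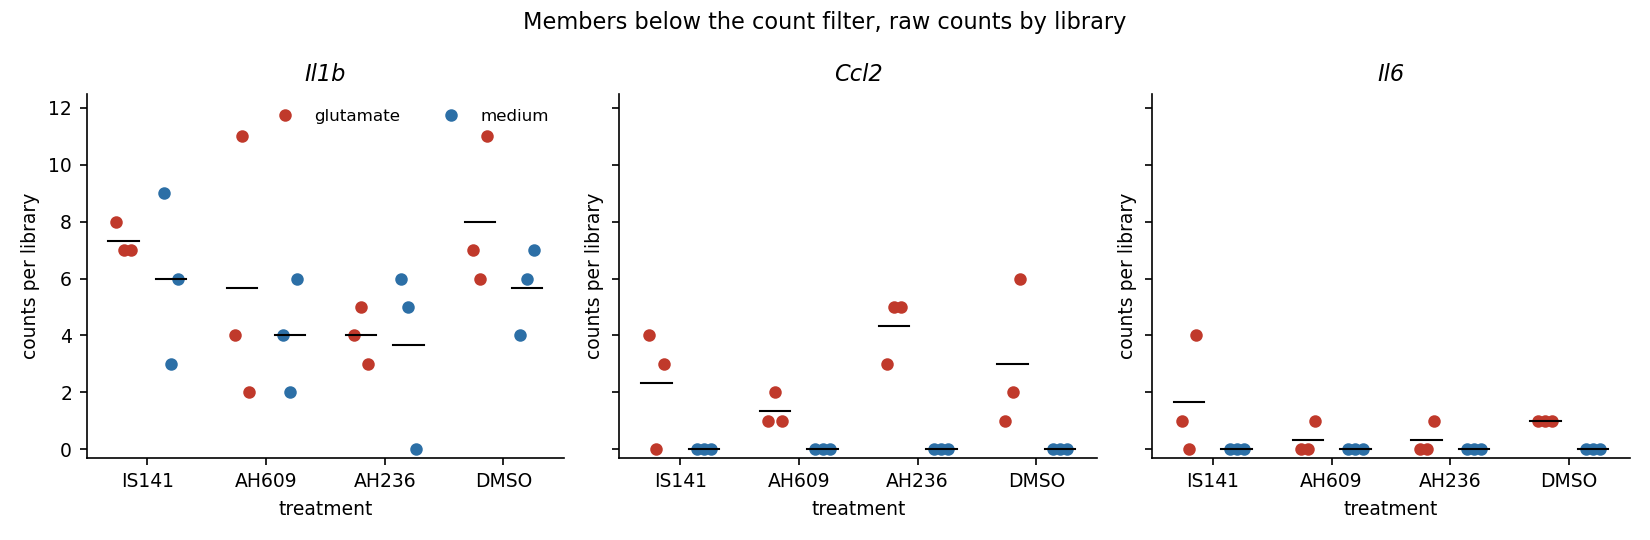
Raw counts of Il1b, Ccl2 and Il6 in each of the 24 libraries, by treatment, with glutamate in red left of medium in blue. Points are libraries and bars are group means (n = 3). Ccl2 and Il6 are at 0 in every medium library, while Il1b reaches 11 counts in glutamate and 9 in medium.

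The next comparison asked whether an agent altered these genes when no glutamate was given. Ptgs2 was higher with IS141 than with DMSO in medium, at 2.03 ± 0.285 CPM against 1.04 ± 0.231 CPM (SD, n = 3 each). The lowest IS141 library, at 1.71 CPM, lay above the highest DMSO library, at 1.28 CPM, and that DMSO library was replicate 1, the one that stood apart. How many of all genes separate these groups was not counted. The log2 fold change was 0.95 ± 0.22 (SE; edgeR adjusted p = 0.00792), a 1.94-fold difference with a 95% interval of 1.41 to 2.66. Without DMSO replicate 1 it was 1.13 (adjusted p = 0.00299). The call was lost when the IS141 and DMSO medium libraries were fitted alone, with a log2 fold change of 0.97 and adjusted p = 0.128. Cxcl1 and Nfkbia were not called with IS141, at log2 fold changes of 1.051 ± 0.86 and -0.14 ± 0.10 (SE; edgeR adjusted p = 0.51 and 0.44). So 1 of the 3 tested members was called, beside 7.98% of all genes. That share was 0.416% with the 2 groups fitted alone. With single libraries left out it was lowest without IS141 medium replicate 2, at 3.49%, and highest without DMSO medium replicate 1, at 1933 of 16119 genes.

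With AH609 in medium, Ptgs2 averaged 1.053 ± 0.221 CPM against 1.04 ± 0.231 CPM in DMSO (SD, n = 3 each), and the 95% interval of the fold change ran from 0.701 to 1.45. With AH236 it averaged 0.808 ± 0.318 CPM (SD, n = 3), and the interval ran from 0.548 to 1.13 times DMSO. Neither agent had a called member in medium, beside 3.06% of all genes for AH609 and 10.5% for AH236. Without DMSO replicate 1, Ptgs2 was at 0.19 with AH609 and -0.17 with AH236 on the log2 scale, again uncalled, and the shares of all genes were 6.22% and 8.72%. With the compared groups alone the shares were 0.0203% and 0.580%. In the edgeR fit 0 members had an unadjusted p under 0.05 in these comparisons, and DESeq2 called 0 as well. Nfkbia in medium was within 0.782 to 1.055 times DMSO for these agents by its 95% intervals. For Cxcl1 the counts in medium were too few to bound a difference closely. Its interval for AH236, which had 1 count against 6 in DMSO, ran from 0.0294 to 1.42 times DMSO.

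**Figure D4:**
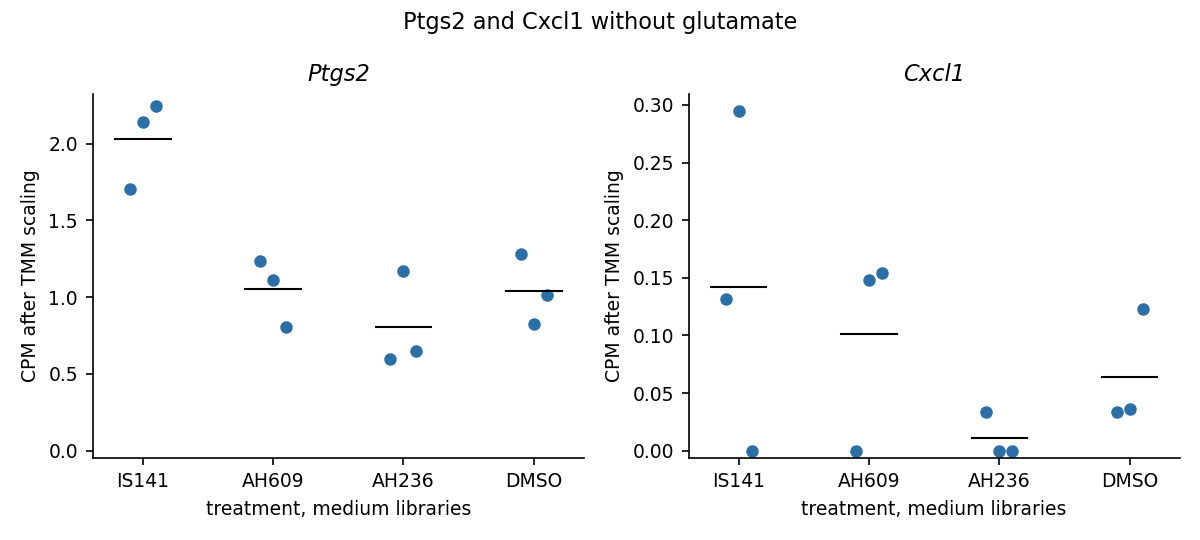
Level of Ptgs2 and Cxcl1 in the 12 medium libraries, in CPM after TMM scaling, by treatment. Points are libraries and bars are group means (n = 3). The 3 IS141 libraries hold the highest Ptgs2 levels, between 1.71 and 2.24 CPM, above the 9 others, and Cxcl1 is at 0 in 4 libraries. Such gaps were not counted over all genes.

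Under glutamate the agents were compared with DMSO in the same way. All 9 differences of Ptgs2, Cxcl1 and Nfkbia were small, with log2 fold changes between -0.10 and 0.09, and 0 were called. The share of all genes called was 8.46% for IS141, 2.62% for AH609 and 10.3% for AH236. Without DMSO medium replicate 1, which is in none of these groups but shares their fit, 2423, 995 and 2530 of 16119 genes were called. In edgeR 0 of the 9 had an unadjusted p under 0.05, and DESeq2 called 0. For Nfkbia the 95% intervals lay within 0.842 and 1.19 times DMSO, for Ptgs2 within 0.773 and 1.24 times, and for Cxcl1 within 0.645 and 1.63 times. Differences larger than these bounds were outside the intervals, while smaller ones could not be told from none.

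Whether an agent changed the size of the glutamate effect was tested as an interaction. No member was called, beside 0.779% of all genes for IS141, 0.0251% for AH609 and 1.55% for AH236. These shares depended on DMSO medium replicate 1, and without it 742, 214 and 496 of 16119 genes were called. Ptgs2 came nearest with IS141, where its rise was 7.07-fold against 13.3-fold in DMSO cultures, a log2 difference of -0.91 ± 0.26 (SE), with an edgeR adjusted p of 0.111. DESeq2 called it (adjusted p = 0.0347, beside 1.33% of all genes), and so did edgeR without DMSO replicate 1 in medium, at -1.08 (adjusted p = 0.0214). This was 1 of 9 interaction values with an unadjusted p under 0.05. The glutamate level of Ptgs2 was 14.3 ± 1.93 CPM with IS141 against 13.9 ± 1.53 CPM with DMSO (SD, n = 3 each), so the smaller fold with IS141 came with the higher level in medium.

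The agents were also set against one another over both media, in 3 pairs that share libraries. Ptgs2 was lower with AH236 than with IS141, by a log2 value of -0.72 ± 0.13 (SE), with an edgeR adjusted p of 0.000493, beside 16.0% of all genes called. With single libraries left out that share ran from 10.9% to 22.7%, the highest without DMSO medium replicate 1. With the compared groups alone it was 23.4%. Ptgs2 was also lower with AH609 than with IS141, at -0.53 ± 0.13 (SE; adjusted p = 0.0323), beside 2.67% called. Without DMSO medium replicate 1 that last share was 8.52%, and with the compared groups alone it was 11.3%. The AH609 call was lost when any 1 of 9 of the 12 compared libraries was left out, with values between -0.55 and -0.45 and adjusted p between 0.0556 and 0.096 in edgeR. Those 9 were IS141 glutamate replicates 1 and 2, AH609 glutamate replicates 1, 2 and 3, IS141 medium replicates 2 and 3, and AH609 medium replicates 2 and 3. AH236 and AH609 did not differ by a called amount in any member, beside 0.685% of all genes (3.98% without DMSO medium replicate 1), and Ptgs2 with AH236 was between 0.709 and 1.078 times its AH609 level by the 95% interval. Cxcl1 was at -1.41 ± 0.66 on the log2 scale for that pair (SE; edgeR adjusted p = 0.404). Nfkbia was not called in any pair. Cxcl1 was at -1.68 ± 0.61 (SE; adjusted p = 0.0618) for AH236 against IS141, and it was called without DMSO medium replicate 1 (-1.68, adjusted p = 0.0475). In medium Cxcl1 had 1 count in all with AH236, 8 with AH609 and 12 with IS141, so its AH236 values rest on few counts.

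These pairs were then taken apart by medium, a comparison chosen after the values had been seen. In medium alone, Ptgs2 was lower with AH236 than with IS141, with a log2 fold change of -1.30, at 0.808 ± 0.318 against 2.03 ± 0.285 CPM (SD, n = 3 each; edgeR adjusted p = 0.000863, beside 7.86% of all genes called). With AH609 the log2 fold change from IS141 was -0.94 (adjusted p = 0.0418, beside 1.13% called). In glutamate alone the log2 fold changes were -0.15 for AH236 (adjusted p = 0.53, beside 8.64% called) and -0.12 for AH609 (adjusted p = 0.784). In that last comparison edgeR called 0 genes, or 0.00%, while 1595 had an unadjusted p under 0.05. Cxcl1 with AH236 against IS141 was at -3.34 on the log2 scale in medium alone (edgeR adjusted p = 0.0807). In glutamate alone it was at -0.02 (adjusted p = 0.98), with group means of 2.05 CPM for AH236 and 2.11 CPM for IS141.

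**Figure D5:**
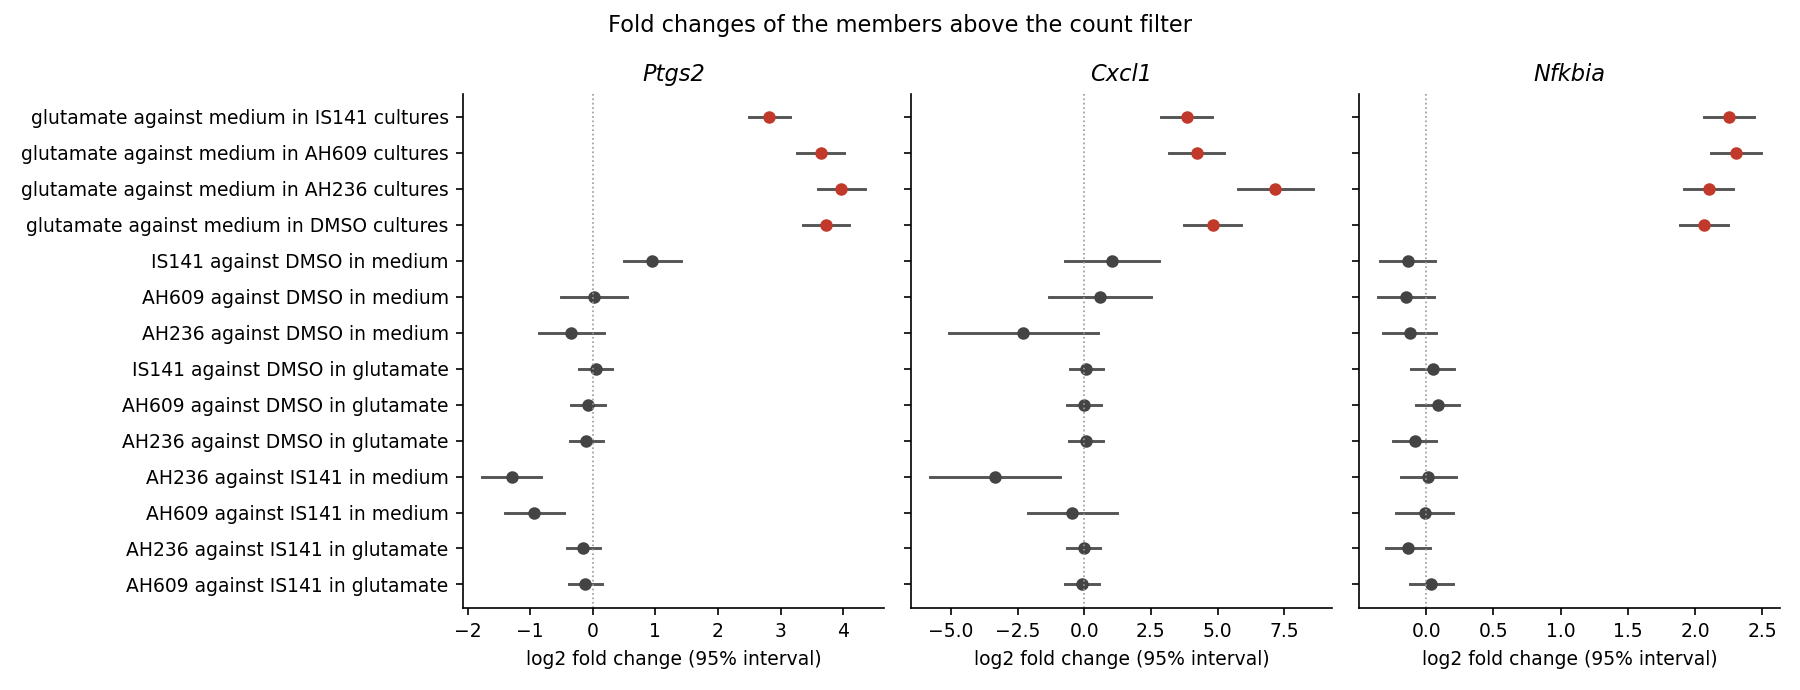
Log2 fold changes of Ptgs2, Cxcl1 and Nfkbia with 95% intervals for 14 comparisons, from the fit of all 24 libraries, with glutamate against medium in red. Horizontal axes differ between panels. Nfkbia and Ptgs2 have narrow intervals, and for Ptgs2 the medium comparisons with IS141 stand away from 0.

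The order of the 8 groups by mean level was similar for the 3 tested genes in that the 4 glutamate groups came first. For Ptgs2 it ran IS141, DMSO, AH609 and AH236 in glutamate, with neighbours overlapping, followed without overlap by IS141 in medium and, again without overlap, by AH609, DMSO and AH236 in medium. For Cxcl1 it ran IS141, AH236, AH609 and DMSO in glutamate, then IS141, AH609, DMSO and AH236 in medium. The Cxcl1 groups overlapped within glutamate, and in medium all neighbours overlapped except AH236 and DMSO, which the scaling alone set apart, since each held a library with 1 count. For Nfkbia it ran AH609, IS141, DMSO and AH236 in glutamate, then DMSO, AH236, IS141 and AH609 in medium, with overlap between all neighbours within each medium. Gaps between groups were not counted over all genes.

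Within a medium, correlations among the tested genes were taken over the libraries of all treatments together. Group means were left in, so differences between treatments and between libraries are mixed in these values. Over the 12 glutamate libraries, Pearson's r of log2 CPM was 0.385 for Ptgs2 and Cxcl1, -0.05 for Ptgs2 and Nfkbia, and -0.03 for Cxcl1 and Nfkbia. Over the 12 medium libraries it was 0.231, -0.29 and -0.28 for the same pairs. Spearman's rank correlation for these pairs was 0.378, -0.294 and -0.203 in glutamate, and 0.0534, -0.168 and -0.0961 in medium. These values describe libraries that share depth and scaling, and for Cxcl1 in medium they rest on at most 8 counts a library.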

How the data were processed

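RNA was sequenced in 24 libraries, and the authors deposited whole-number counts for each Ensembl rat gene, in a single table without normalization. The submitters' processing notes name build Rnor_6.0 and the tools STAR 2.7.8a, RSEM 1.3.3, cutadapt 2.3, FastQC 0.11.8 and bcl2fastq. What each tool did, the gene annotation and whether counting used strand is not given in the sources used here. Since RSEM estimates counts, the values may be rounded estimates, and genes that overlap or have near copies are uncertain. The library kit was directional, per the labels' protocols. Groups and replicate numbers came from the sample titles, and where a number was given to a pair of AH236 glutamate libraries, the later one is called replicate 3.

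Genes were kept by filterByExpr of edgeR 4.0.16 (R 4.3.3) with the groups, which left 15908 of 32754. One quasi-likelihood fit with TMM factors, robust dispersions and 8 group means covered all libraries. Benjamini-Hochberg adjustment ran over all tested genes within each comparison, with calls at 0.05. Standard errors were derived from the log2 fold change and its F statistic. Intervals from summed counts, and the floor of 3 counts, cover counting error only. The code was tested on simulated data. No pair of replicates agreed within sampling noise. Alternatives were RLE factors, library totals, no filter, DESeq2 1.42.0, the compared groups alone, a replicate block and single libraries left out.

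Members and lists were chosen with earlier results of these data known. Named genes were to be the 6 members, the 3 genes most like each tested member and the most changed genes of 10 pathway lists. The likeness rule and the lists needed symbols for other IDs, which no table used here gives, so these and the 6 cell type marker lists gave no result.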

Additional observations from a re-analysis of the deposited data

How the results depend on the processing

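The rises of Ptgs2, Cxcl1 and Nfkbia with glutamate kept their direction and stayed called under all alternatives run, which were RLE size factors, library totals, no filter, DESeq2, the compared groups alone, the title number as a block, and each library left out. In DMSO cultures without DMSO medium replicate 1 they were 3.90, 4.52 and 2.04 on the log2 scale. Cxcl1 passed the filter only through glutamate libraries, so its calls are not separate support for its rise. Over all 4 treatments the log2 fold changes ranged from 3.35 to 3.63 for Ptgs2, 4.83 to 5.43 for Cxcl1 and 1.99 to 2.20 for Nfkbia. With no filter, 5 members in place of 3 were called over all 4 treatments, beside 51.2% of all genes. The added ones were Ccl2 and Il6. In IS141, AH236 and DMSO cultures 4 were called in place of 3, with Ccl2 added, beside 35.5%, 36.5% and 35.7%. In AH609 cultures 3 were called, beside 37.1%. The count with IS141 against DMSO in medium was 0 in place of 1 with the compared groups alone, beside 0.416% of all genes. For the change of the glutamate effect with IS141 it was 1 in place of 0 with DESeq2, and 0 to 1 with single libraries left out. For AH236 against IS141 the count was 2 in place of 1 with library totals and with DESeq2, beside 17.3% and 16.4% of all genes. There Cxcl1 was added (adjusted p = 0.0476 in edgeR with library totals and 0.0289 in DESeq2). With single libraries left out the count was 1 to 2, beside 10.9% to 22.7%. In glutamate libraries alone it was 0, beside 8.64%. The added Cxcl1 calls rest on medium counts of 1 with AH236 and 12 with IS141. For AH609 against IS141 the number called was 0 to 1 with single libraries left out, beside 0.570% to 8.52% of all genes. In glutamate libraries alone it was 0, beside 0.00%. The separate media were added after seeing the data. Where not stated above, the cause was not tested.

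The title number gave little sign of pairing the libraries, and the check was limited. Correlations of the deviations of same-numbered glutamate and medium libraries ran from -0.05 to 0.17, and 2 of 10 were over 0.1. Both of those were in DMSO cultures, at 0.131 and 0.169, and in AH236 cultures only number 1 could be paired. The block below has 1 effect per number shared by all treatments, so it does not test pairing within a treatment. With the number as a replicate block, 3 members were called in each glutamate comparison and 1 with IS141 against DMSO in medium, as without it, and no other member count changed. Of the member values that no setting called, 31 in number, 12 changed sign in some setting. Depth limited Il1b, Il6 and Ccl2, and Cxcl1 in medium. The pathway list alternatives were not run, because the lists could not be matched.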
